A study of Mus musculus with 24 samples.

Results

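The genes described here are 41 genes of DNA replication and mitosis, taken by name from a deposited expression table of 36806 genes, with letter case ignored. All 41 were found. They form 2 lists. The 16 S-phase genes are Mcm2 to Mcm7, Pcna, Rrm1, Rrm2, Tyms, Cdc6, Gins2, Ccne1, Ccne2, E2f1 and Chek1. The 25 mitotic genes are Top2a, Mki67, Birc5, Ccna2, Ccnb1, Ccnb2, Cdk1, Foxm1, Bub1, Bub1b, Aurka, Aurkb, Plk1, Cdc20, Kif11, Kif20a, Cenpe, Cenpf, Tpx2, Nusap1, Prc1, Ube2c, Hmmr, Cks2 and Ncapg. The question put to them was when each list is raised in the inflamed pancreas, and whether the timing differs with the dose of Nr5a2.

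Cells that re-enter the cycle first make the replication machinery and then the mitotic machinery. E2F factors switch on the S-phase genes, which build the replicative helicase, the sliding clamp and the enzymes that supply deoxynucleotides. Later, Foxm1 and the B-Myb and MuvB complex drive the mitotic genes, whose products condense chromosomes, build the spindle and time chromosome separation. The adult pancreas consists mostly of acinar cells, which secrete digestive enzymes and rarely divide. After caerulein, a cholecystokinin analog that overstimulates them, acinar cells lose enzyme expression, immune cells and fibroblasts accumulate, and several of these cell types proliferate during repair. Nr5a2 encodes a nuclear receptor that acinar cells need to keep their identity.

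Polyadenylated RNA of whole pancreas was sequenced in C57BL mice. WT denotes the Nr5a2 +/+ genotype and HET the Nr5a2 +/- genotype. The saline groups were the controls of each genotype. The caerulein groups received 50 µg/kg intraperitoneally in 7 injections, 1 per hour, and were killed 8, 24 or 48 h after the first of them. Each of the 8 groups held 3 animals, so 24 libraries were measured. Ages were not used here, and the labels do not say how the Nr5a2 allele was altered. Values are FPKM, fragment counts scaled to transcript length and library size. Sequencing depth behind them is unknown, so no counting error can be given. Groups were compared with limma on log2(FPKM + 1), with p-values adjusted by Benjamini-Hochberg over all genes tested, and a gene was called at an adjusted p under 0.05. Differences are on that log2(FPKM + 1) scale, which understates changes of genes near 1 FPKM or below, and many mitotic genes lie there. A difference in bulk tissue can come from more cells of a type or more RNA per cell, and these cannot be told apart.

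Nr5a2 itself stood at 9.26 to 12.6 FPKM in WT saline and at 8.01 to 9.09 FPKM in HET saline, and its HET mean was below its WT mean in all 4 conditions. Summed FPKM ran from 217205 to 1400108 per library. The earlier TruSeq guide (10 PCR cycles) was used for saline and 24 h libraries and the v2 guide (8 cycles) for 8 h and 48 h libraries, while WT saline replicate 3 is on neither list. Time differences between those pairs of groups therefore cannot be told apart from the guide, whereas genotype differences at 8, 24 and 48 h lie within a guide. For the saline genotype comparison, WT 24 h against saline and the 24 h interaction this holds only without WT saline replicate 3, and the saline genotype comparison and the 24 h interaction are given without it too. Acinar markers checked the tissue: 15 of them summed to 124285 to 190077 FPKM in WT saline. Of these, 5 (Cpa1, Cela2a, Pnlip, Cel and Amy2a5) were listed at 0 in every saline library of both genotypes. The tests treated these zeros as missing estimates, whereas the sums count them as 0. Acinar sums of different groups therefore rest on partly different genes. WT 24 h replicate 1 stood apart among its group in both lists (mean mitotic log2 level 2.32, against 1.60 and 1.48), and results that rest on it are given without it too. Of the 41 genes, 38 reached 1 FPKM in at least 3 libraries and were tested, 15 S-phase and 23 mitotic. A gene that passes only through its high groups was bound to differ, so counts over all 41 genes are given where they bear on a result. Chek1 (a checkpoint kinase, at most 0.745 FPKM), Cenpe (a kinetochore motor, at most 1.15 FPKM) and Ncapg (a condensin subunit, at most 1.77 FPKM) were not tested.

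Promoter sequences show how the lists differ in a property that expression did not choose. The 6 promoters printed here were picked after the values were seen, as 3 helicase genes with E2F matches and 3 mitotic genes with the CCAAT and CHR combination. Each runs from 250 bases before to 50 bases after the transcript start in RefSeq on GRCm38.p6, 5′ to 3′ on the gene's strand. Capitals mark the E2F letters in Mcm3, Mcm5 and Mcm6 and the CCAAT and CHR letters in Ccnb1, Ccnb2 and Cdc20. Adjacent E2F matches overlap in Mcm5 and Mcm6. The marking is partial: Mcm3, Mcm5 and Mcm6 also hold CCAAT boxes, and Mcm5 holds CHR letters too, all left in lower case. Mcm5 thus has the same CCAAT and CHR combination as the mitotic examples.
Mcm3 (chr1:20820263-20820562, minus strand): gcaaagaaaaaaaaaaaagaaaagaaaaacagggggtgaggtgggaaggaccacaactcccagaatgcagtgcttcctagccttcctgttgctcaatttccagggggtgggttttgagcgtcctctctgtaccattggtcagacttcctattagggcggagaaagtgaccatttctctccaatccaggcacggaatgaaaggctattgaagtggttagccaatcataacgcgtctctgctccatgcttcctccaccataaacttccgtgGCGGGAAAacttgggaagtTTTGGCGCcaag
Mcm5 (chr8:75109259-75109558, plus strand): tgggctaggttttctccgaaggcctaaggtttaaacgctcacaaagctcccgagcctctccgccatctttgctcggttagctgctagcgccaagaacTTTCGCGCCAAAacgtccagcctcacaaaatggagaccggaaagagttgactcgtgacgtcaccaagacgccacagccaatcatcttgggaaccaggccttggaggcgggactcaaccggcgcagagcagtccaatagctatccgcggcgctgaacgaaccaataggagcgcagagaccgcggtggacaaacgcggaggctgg
Mcm6 (chr1:128359656-128359955, minus strand): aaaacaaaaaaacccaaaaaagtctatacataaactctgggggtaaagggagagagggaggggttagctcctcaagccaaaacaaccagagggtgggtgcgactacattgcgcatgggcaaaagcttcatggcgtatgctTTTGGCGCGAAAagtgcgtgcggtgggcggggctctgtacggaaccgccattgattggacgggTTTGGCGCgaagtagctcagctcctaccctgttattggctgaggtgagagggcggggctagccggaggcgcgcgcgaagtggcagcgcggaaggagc
Ccnb1 (chr13:100786437-100786736, minus strand): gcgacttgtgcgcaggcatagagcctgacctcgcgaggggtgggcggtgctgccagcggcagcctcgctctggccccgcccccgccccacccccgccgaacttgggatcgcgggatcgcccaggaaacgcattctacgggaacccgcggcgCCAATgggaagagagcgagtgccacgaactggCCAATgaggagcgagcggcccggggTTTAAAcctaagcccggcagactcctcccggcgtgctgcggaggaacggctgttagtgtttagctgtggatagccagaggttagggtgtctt
Ccnb2 (chr9:70421505-70421804, minus strand): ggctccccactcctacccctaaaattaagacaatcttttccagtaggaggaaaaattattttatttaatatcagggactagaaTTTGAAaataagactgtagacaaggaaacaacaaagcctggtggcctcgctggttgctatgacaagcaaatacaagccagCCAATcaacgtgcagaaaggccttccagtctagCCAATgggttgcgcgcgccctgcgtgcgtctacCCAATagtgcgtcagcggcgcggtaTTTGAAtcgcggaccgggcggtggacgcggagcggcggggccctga
Cdc20 (chr4:118437294-118437593, minus strand): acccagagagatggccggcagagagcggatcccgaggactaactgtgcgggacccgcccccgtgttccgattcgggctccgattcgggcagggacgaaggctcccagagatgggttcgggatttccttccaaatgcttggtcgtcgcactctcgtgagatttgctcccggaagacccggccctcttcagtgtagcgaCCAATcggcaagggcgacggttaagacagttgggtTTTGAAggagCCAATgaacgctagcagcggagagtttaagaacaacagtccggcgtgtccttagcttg

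Motifs were searched on both strands of the 300 bases. RefSeq promoters matched 33 of the 41 genes with 35 promoters, 14 of S-phase and 21 of mitotic genes. Mcm7 and Prc1 each have 2 promoters. Those of Prc1 overlap, so the same CHR and CCAAT letters are counted in both. The E2F letters were TTTCCCGC, TTTCGCGC, TTTGCCGC and TTTGGCGC, where E2F factors are known to bind. They occurred in 5 of 14 S-phase promoters (35.7%) and 2 of 21 mitotic promoters (9.52%), beside 2.26% of all 32851 promoters. CHR letters, TTTGAA or TTTAAA, mark the element through which MuvB complexes act. They occurred in 18 of 21 mitotic promoters (85.7%) and 4 of 14 S-phase promoters (28.6%), the latter near the 27.6% of all promoters. The CCAAT box, CCAAT, was present in 19 mitotic promoters (90.5%) and 9 S-phase promoters (64.3%), beside 37.4% of all promoters. At least 2 CCAAT boxes stood in 57.1% of mitotic, 35.7% of S-phase and 11.7% of all promoters. A match is a description of letters, not evidence that a factor binds there.

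Before injury the mitotic genes were close to undetected in WT pancreas, whereas several S-phase genes were measurable. Pcna, the replication clamp, was the highest S-phase gene at 11.3, 7.55 and 11.3 FPKM in WT saline, followed by Tyms, which makes thymidylate, at 4.09, 2.8 and 5.95 FPKM. Top2a, the topoisomerase that untangles sister chromatids, reached 1.19, 0.665 and 1.63 FPKM. Cdk1, the mitotic kinase, was at 0.565, 0 and 0.182 FPKM, and Ccnb1, its cyclin, was listed at 0 in 2 of the 3 animals. The 16 S-phase genes summed to 25.5 to 36.2 FPKM and the 25 mitotic genes to 4.02 to 11.1 FPKM. At 24 h in WT these sums were 81.6 to 125 FPKM and 56.3 to 122 FPKM, above every saline library.

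**Figure D1:**
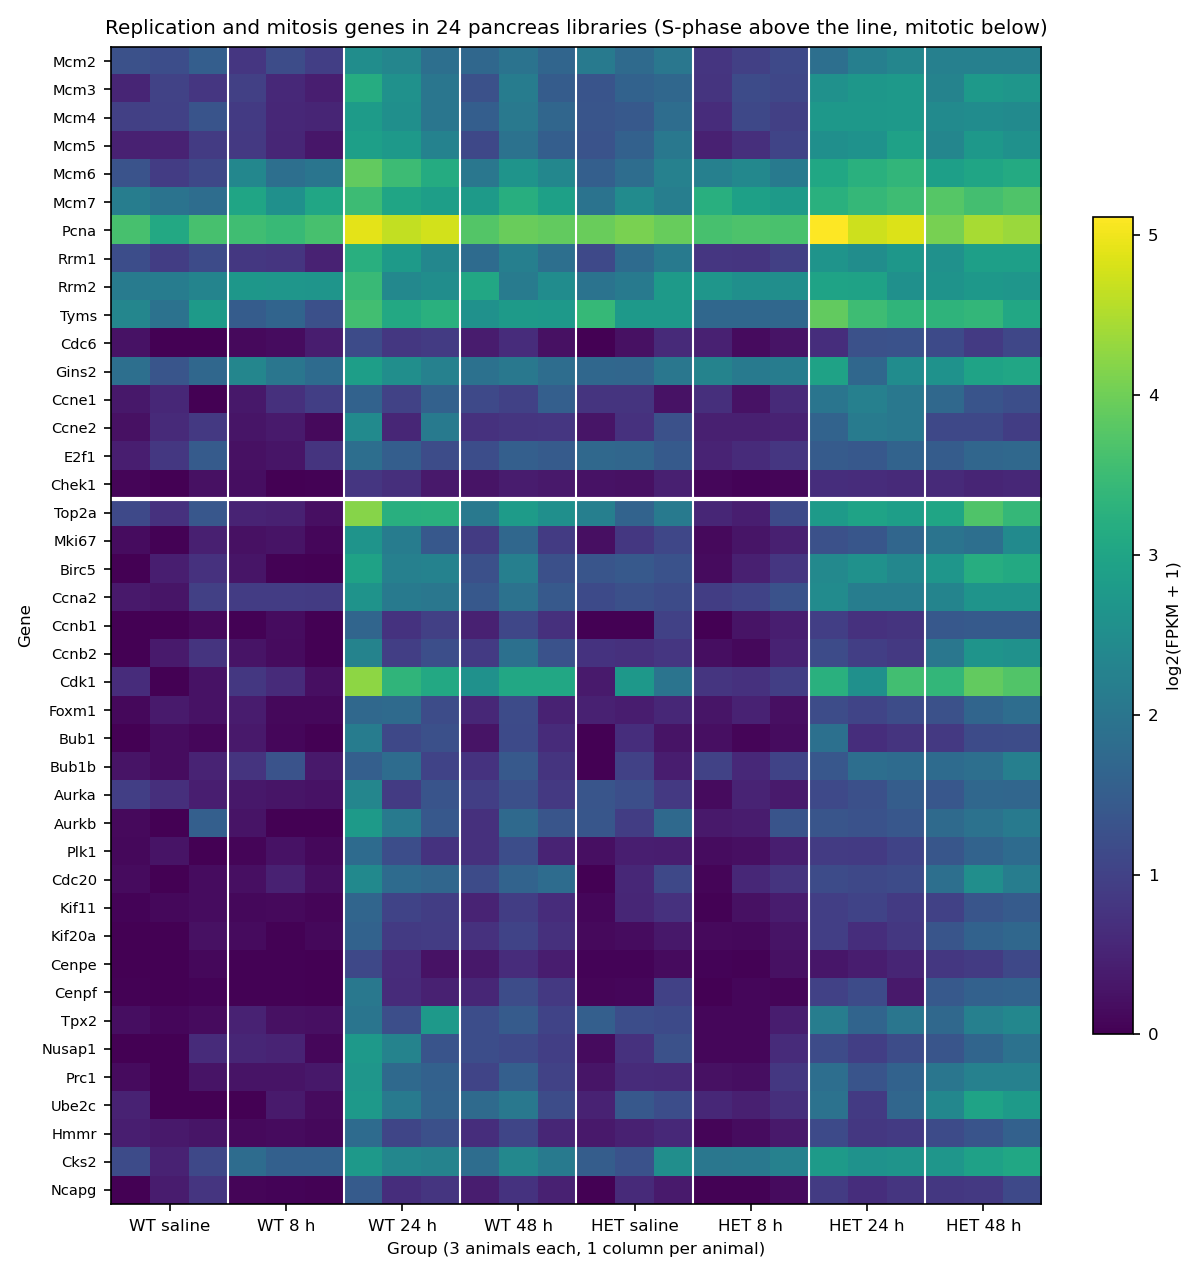
Level of the 41 genes on the log2(FPKM + 1) scale, 1 column per animal and 8 groups of 3 animals (WT, Nr5a2 +/+; HET, Nr5a2 +/-). Both lists are bright at 24 h in WT, and in HET the mitotic genes below the white line are brightest at 48 h.

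In WT mice nearly all tested genes of both lists were above saline at 24 h. Of the tested genes, 14 of 15 S-phase and 23 of 23 mitotic genes rose and none fell, where 39.2% of all genes tested were called and 20.5% were called higher. The median difference was 1.14 for S-phase and 1.54 for mitotic genes, beside 0.05 over all genes tested. Without the filter on low values 14 of 16 and 25 of 25 were called. Values did not overlap in 14 of 16 S-phase and 22 of 25 mitotic genes, beside 22.5% of all genes tested with 24 h higher. Mcm6, a subunit of the replicative helicase, stood at 1.48, 0.889 and 1.15 FPKM in saline and at 13.8, 10.3 and 7.9 FPKM at 24 h. Mcm5, another subunit, stood at 0.377, 0.408 and 0.858 FPKM in saline and at 6.43, 5.74 and 3.85 FPKM at 24 h. The groups did not overlap for either gene, and the differences were 2.40 ± 0.21 (SE; limma adjusted p = 1.18e-07) and 2.03 ± 0.23 (adjusted p = 2.85e-06). Pcna went from 11.3, 7.55 and 11.3 FPKM to 29.1, 23.9 and 26.2 FPKM, a difference of 1.33 ± 0.14 (limma adjusted p = 1.38e-06). Rrm1, the large subunit of ribonucleotide reductase, went from 1.3, 0.895 and 1.26 FPKM to 8.43, 5.88 and 4.19 FPKM (1.70 ± 0.21, limma adjusted p = 7.08e-06). Rrm2, the small subunit of the same enzyme, was the tested S-phase gene that was not called. It stood at 3.35, 3.44 and 3.96 FPKM in saline and at 10.1, 4.27 and 4.66 FPKM at 24 h, where replicate 1 alone was high (0.60 ± 0.25, limma adjusted p = 0.0696).

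The mitotic genes with the smallest adjusted p in this WT comparison were Top2a, Ccna2, Birc5 and Prc1. Top2a stood at 1.19, 0.665 and 1.63 FPKM in saline and at 17.2, 8.41 and 8.49 FPKM at 24 h (2.47 ± 0.27, limma adjusted p = 1.46e-06). Ccna2, the cyclin of S phase and mitotic entry, stood at 0.282, 0.217 and 0.969 FPKM and then at 5.19, 3.34 and 3.07 FPKM (1.72 ± 0.19, limma adjusted p = 2.11e-06). Replicate 1 was the highest at 24 h for both genes, and no value overlapped between the groups. Birc5, a subunit of the chromosomal passenger complex, went from 0, 0.341 and 0.652 FPKM to 6.76, 3.68 and 3.8 FPKM (2.10 ± 0.25, limma adjusted p = 4.13e-06). Prc1, which crosslinks the microtubules of the spindle midzone, went from 0.11, 0 and 0.205 FPKM to 5.49, 2.35 and 2 FPKM (1.87 ± 0.24, limma adjusted p = 7.93e-06). Cdk1 had the largest mitotic difference at 3.26 ± 0.42. Without WT 24 h replicate 1, 33 of the 38 genes were called and the medians were 0.95 and 1.24.

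Other cell types moved with this comparison. Of the tested markers, 12 of 13 macrophage and 10 of 12 fibroblast and stellate markers rose at 24 h in WT, and 8 of 10 acinar markers fell. Of the other lists, 3 of 8 neutrophil, 3 of 7 adipocyte and 3 of 7 duct markers rose, and 1 duct, 2 of 7 endothelial and 8 of 9 islet markers fell. Macrophage markers summed to 94.3 to 220.0 FPKM in saline and 613 to 1020.1 FPKM at 24 h, fibroblast and stellate markers to 228 to 311 and 546 to 1024 FPKM, and acinar markers to 124285 to 190077 and 50349 to 57732 FPKM. None of the macrophage or fibroblast markers was at 0 in either group, whereas 5 acinar markers (Cpa1, Cela2a, Pnlip, Cel and Amy2a5) were listed at 0 in all saline libraries. Their part in the rise of the replication and mitosis genes was not tested. When libraries were scaled to the total without the 45 enzyme and Reg genes found, which dominate saline libraries, the median of all genes tested shifted from 0.05 to 0.69. The S-phase and mitotic medians were then 1.72 and 1.95, still above that shift.

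In HET mice most S-phase genes and a smaller majority of mitotic genes were called higher at 24 h. Of the tested genes, 11 of 15 S-phase and 14 of 23 mitotic genes rose and none fell, where 43.8% of all genes tested were called and 23.9% were called higher. Medians were 0.96 and 0.61, beside 0.06 for all genes tested. The larger S-phase median belongs to the pseudocount of 1. With a pseudocount of 0.1, the S-phase mean minus the mitotic mean was 1.59 in HET saline and 1.45 at 24 h. At that setting the S-phase mean did not rise more than the mitotic mean. Without the filter, 12 of 16 and 11 of 25 were called, and values did not overlap in 11 of 16 and 16 of 25, beside 27.6% of all genes tested with 24 h higher. Ccne1, cyclin E, which triggers entry into S phase, stood at 0.709, 0.695 and 0.185 FPKM in HET saline and at 2.99, 3.67 and 3.14 FPKM at 24 h (1.50 ± 0.22, limma adjusted p = 2.52e-05). Mcm6 stood at 1.91, 2.57 and 3.75 FPKM and then at 7.27, 8.54 and 9.32 FPKM (1.35 ± 0.21, limma adjusted p = 3.53e-05). Both genes were separated between the groups. Mcm7, a helicase subunit, went from 2.85, 4.5 and 3.55 FPKM to 8.51, 9.68 and 10.5 FPKM (1.20 ± 0.18, limma adjusted p = 3.56e-05). Pcna went from 14.5, 16 and 14.3 FPKM to 33.7, 25.6 and 27.6 FPKM (0.90 ± 0.14, limma adjusted p = 4.77e-05). The S-phase genes not called were Gins2 (a subunit of the active helicase, 0.58), Rrm2 (0.55), Mcm2 (0.18) and E2f1 (-0.12).

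Among mitotic genes in HET at 24 h, Ccna2 went from 1.22, 1.38 and 1.26 FPKM to 4.57, 3.5 and 3.47 FPKM (1.08 ± 0.19, limma adjusted p = 0.000166). Prc1 went from 0.216, 0.547 and 0.534 FPKM to 2.59, 1.52 and 2.03 FPKM (1.08 ± 0.24, limma adjusted p = 0.0011). Bub1b, a spindle checkpoint protein, went from 0, 0.981 and 0.336 FPKM to 1.61, 2.59 and 2.44 FPKM (1.20 ± 0.27, limma adjusted p = 0.00145). In all 3 genes every 24 h library was above every saline library. Birc5 went from 1.55, 1.71 and 1.44 FPKM to 4.32, 5 and 4.13 FPKM (1.09 ± 0.25, limma adjusted p = 0.00165). The 9 mitotic genes not called were those of anaphase control (Cdc20, 0.58; Ube2c, 0.46), the B cyclins (Ccnb1, 0.49; Ccnb2, 0.24), the Aurora kinases (Aurka, 0.15; Aurkb, -0.01), the spindle factors Tpx2 (0.64) and Nusap1 (0.39), and Cenpf of the kinetochore (0.45). Calls numbered 19 without HET 24 h replicate 1 or without HET saline replicate 1. Under the scaling without enzyme and Reg genes, the median of all genes shifted to 0.86, and the S-phase and mitotic medians became 1.798 and 1.06. The mitotic median was then not far above that shift. In that fit 36 of 38 were called, but the median gene moved up too, so this count is not a result about the lists. Beside these genes in HET, 9 of 13 macrophage, 7 of 8 neutrophil and 1 of 12 fibroblast and stellate markers rose, 2 fibroblast and stellate markers fell, and 9 of 10 acinar markers fell. In addition, 4 of 7 duct markers rose, and 1 duct, 5 of 7 endothelial, 5 of 7 adipocyte and 1 of 9 islet markers fell. From saline to 24 h, the macrophage sum ranged from 286 to 611 and then 844 to 1345 FPKM, the neutrophil sum from 10.8 to 41.5 and then 129 to 334 FPKM, the fibroblast sum from 405 to 760.2 and then 501 to 667 FPKM, and the acinar sum from 108947 to 213073 and then 22284 to 23999 FPKM. The neutrophil marker Ly6g was at 0 in all HET saline libraries. The part of these cells was not tested.

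The difference between the genotypes in this 24 h rise was tested as an interaction, which uses the saline and 24 h values already given. Top2a was called, with a rise smaller in HET by 1.57 on the log2 scale (interaction -1.57 ± 0.38, limma adjusted p = 0.0333), where 2.31% of all genes tested were called and 1.24% were called lower. In Top2a the saline values were 3.61, 2.11 and 3.32 FPKM in HET against 1.19, 0.665 and 1.63 in WT, and the 24 h values were 5.94, 6.85 and 6.34 in HET against 17.2, 8.41 and 8.49 in WT. HET thus started above WT and ended below it, without overlap at either time. The call was lost in 8 of the 24 fits that each left out a library, with WT saline replicate 1 or 2, HET saline replicate 1 or 3, WT 24 h replicate 1 or any HET 24 h replicate left out, and the highest limma adjusted p was 0.0854, without WT 24 h replicate 1. It was also lost with a pseudocount of 0.1, without the filter, under the scaling without enzyme and Reg genes and with spread from the compared groups alone. No S-phase gene and no other mitotic gene was called by limma, although 6 S-phase and 15 mitotic genes had an unadjusted p under 0.05. Interaction estimates were below 0 for 22 of 23 mitotic genes (median -0.69) and 12 of 15 S-phase genes (median -0.34), with a median of 0.02 over all genes tested. Without WT 24 h replicate 1 these medians were -0.46 and -0.21 and no gene was called, and without WT saline replicate 3 they were -0.85 and -0.51 and 2 mitotic genes were called lower. Markers of other cells were called in the same interaction: 3 of 12 fibroblast and stellate markers (median -1.52, 11 of 12 with an unadjusted p under 0.05), 2 of 7 adipocyte markers (median -3.93) and 2 of 10 acinar markers (median -1.49), all lower. Their part in the result was not tested.

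At 24 h the genotypes did not differ in any S-phase or mitotic gene by limma at an adjusted p under 0.05, where 6.5% of all genes tested were called. An unadjusted p under 0.05 was reached by 1 S-phase and 7 mitotic genes. The S-phase median was 0.10, while the mitotic median was -0.40 with 20 of 23 genes below 0. Nusap1, which bundles spindle microtubules, was at 5.85, 3.91 and 1.5 FPKM in WT and 1.26, 0.934 and 1.27 FPKM in HET (-1.03 ± 0.31, limma adjusted p = 0.0523). Cdc20, the activator of the anaphase-promoting complex, was at 4.4, 2.44 and 2.24 FPKM in WT and 1.24, 1.15 and 1.25 FPKM in HET (-0.82 ± 0.26, limma adjusted p = 0.0618). Neither gene overlapped between the genotypes, which held for 4 of 25 mitotic genes with HET lower, beside 11.7% of all genes tested. The S-phase genes with the smallest p were Ccne1, at 2.07, 1.01 and 2.01 FPKM in WT and 2.99, 3.67 and 3.14 in HET (0.68 ± 0.22, limma adjusted p = 0.0714), and Mcm4, at 6.04, 4.86 and 3.04 against 5.66, 5.62 and 5.84 FPKM (0.29 ± 0.19, limma adjusted p = 0.43). The HET animals were closely grouped while WT replicate 1 stood high. Without that library the mitotic median was -0.07 and the S-phase median 0.21, and no gene was called, whereas 2 mitotic genes were called lower without WT replicate 3. Scaling without enzyme and Reg genes shifted the median of all genes to 0.18, with S-phase and mitotic medians of 0.26 and -0.25. Beside these values, 1 of 13 macrophage, 2 of 8 neutrophil and 2 of 7 duct markers were higher in HET, and 1 of 12 fibroblast and stellate, 1 of 7 adipocyte and 3 of 13 tested acinar markers were lower. The neutrophil sum was 13.7 to 175 FPKM in WT and 129 to 334 FPKM in HET, and their part was not tested.

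**Figure D2:**
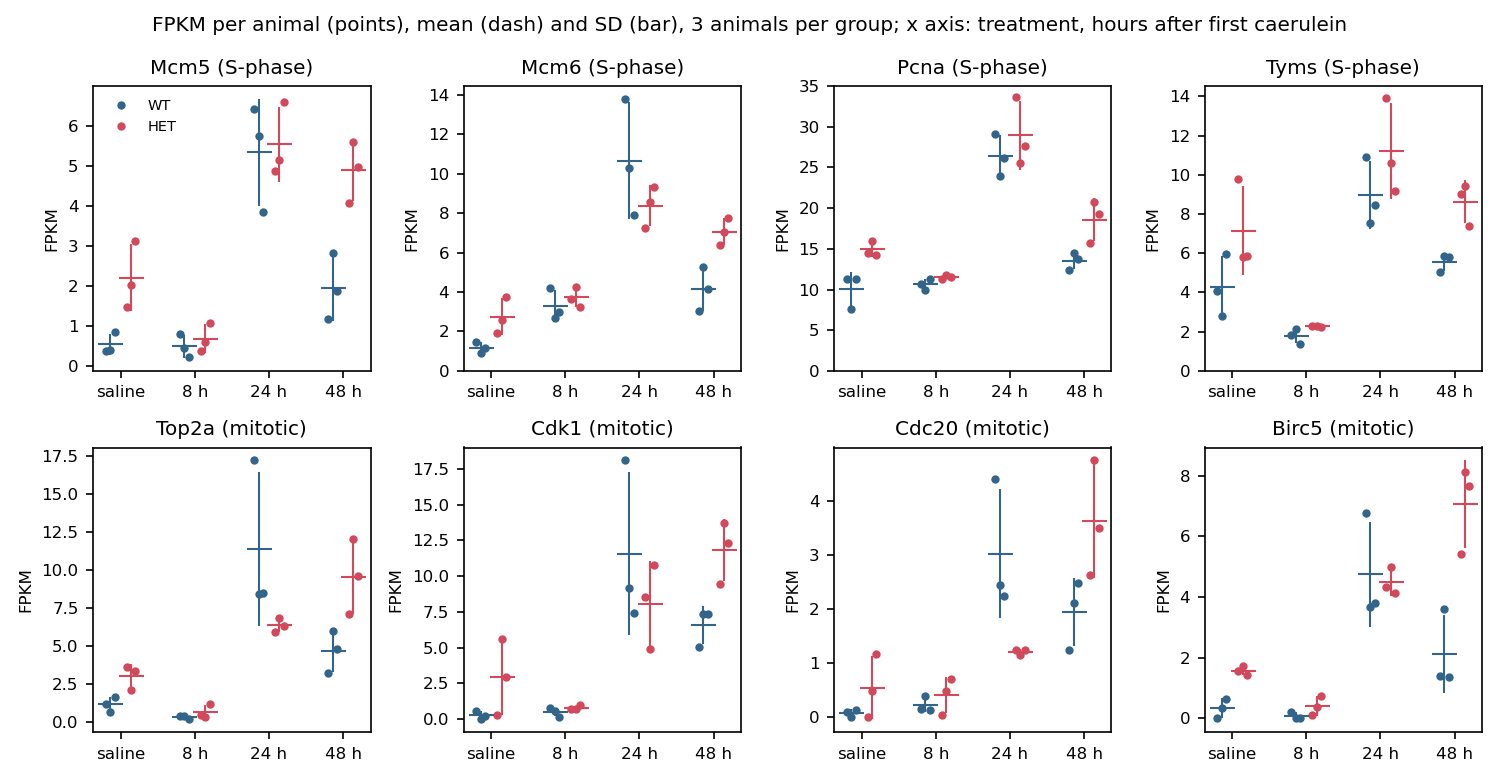
FPKM of 4 S-phase genes (top) and 4 mitotic genes (bottom) in each animal by treatment, with mean and SD of 3 animals (blue, WT; red, HET). In Cdc20 the HET points at 24 h, 1.15 to 1.25 FPKM, lie below the WT points, and the HET points at 48 h, 2.64 to 4.75 FPKM, lie above those at 24 h.

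At 8 h neither list rose as a whole. In WT, 2 of 15 S-phase genes were higher than saline and 1 lower, and 1 of 23 mitotic genes was higher and 1 lower, where 51% of all genes tested were called, 28.2% higher and 22.8% lower. Mcm7 stood at 3.51, 2.88 and 2.57 FPKM in WT saline and at 7.05, 4.91 and 7.11 FPKM at 8 h (0.88 ± 0.18, limma adjusted p = 0.000478), and Mcm6 at 1.48, 0.889 and 1.15 and then 4.19, 2.67 and 2.99 FPKM (0.97 ± 0.21, limma adjusted p = 0.000532). These helicase subunits were separated from saline already at 8 h. Tyms fell from 4.09, 2.8 and 5.95 FPKM to 1.82, 2.13 and 1.38 FPKM (-0.89 ± 0.21, limma adjusted p = 0.00134). Cks2, a small subunit of mitotic kinases, was higher (0.72 ± 0.25, limma adjusted p = 0.0191) and Top2a was lower (-0.69 ± 0.27, limma adjusted p = 0.0372). The Cks2 call was lost under both alternative scalings and in 2 of the 24 fits without a library (adjusted p up to 0.12, without WT saline replicate 2). The Top2a call was lost without the filter, under the scaling without enzyme and Reg genes and in 5 of those fits (adjusted p up to 0.149, without WT saline replicate 3). In WT at 8 h, 6 of 7 endothelial, 5 of 10 acinar, 5 of 9 islet and 2 of 7 duct markers fell, and 3 duct, 2 of 13 macrophage and 1 of 8 neutrophil markers rose. The endothelial sum was 36.3 to 38.7 FPKM in saline and 15.8 to 20.5 FPKM at 8 h, and the acinar sum 124285 to 190077 and 22724 to 39461 FPKM. Their part was not tested.

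In HET at 8 h, 1 of 15 S-phase genes was higher than saline and 7 lower, and 4 of 23 mitotic genes were lower, where 55.2% of all genes tested were called, 30.7% higher and 24.5% lower. Mcm7 was the higher gene, from 2.85, 4.5 and 3.55 FPKM to 8.43, 6.5 and 5.94 FPKM (0.78 ± 0.18, limma adjusted p = 0.0012). Tyms fell from 9.76, 5.82 and 5.84 FPKM to 2.29, 2.29 and 2.25 FPKM (-1.28 ± 0.21, limma adjusted p = 3.45e-05), and Mcm2 from 3.25, 2.41 and 3.09 FPKM to 0.736, 0.968 and 1.18 FPKM (-0.998 ± 0.167, limma adjusted p = 4.28e-05). All 8 h values of these genes lay below the saline values. E2f1, Mcm5, Rrm1, Mcm4 and Pcna also fell. The Pcna call (-0.34, limma adjusted p = 0.0485) was lost in 16 of the 24 fits without a library, without the filter, under the scaling without enzyme and Reg genes and with spread from the compared groups alone. The Mcm4 call was lost in 2 of those fits (adjusted p up to 0.0585, without HET saline replicate 3) and under the scaling without enzyme and Reg genes. The mitotic genes that fell were Top2a (-1.28), Tpx2, which starts spindle assembly (-1.11), Birc5 (-0.89) and Aurka (-0.80), of which Aurka was not called under the scaling without enzyme and Reg genes. Beside them in HET, 9 of 12 fibroblast and stellate, 6 of 10 acinar, 3 of 7 endothelial, 2 of 7 duct, 2 of 13 macrophage and 1 of 7 adipocyte markers fell, and 4 duct, 2 macrophage and 2 of 8 neutrophil markers rose. The fibroblast and stellate sum was 405 to 760.2 FPKM in HET saline and 287 to 312 FPKM at 8 h. The part of these cells was not tested. The 8 h and saline libraries were prepared by different guides. Between the genotypes at 8 h no S-phase or mitotic gene was called by limma, none had an unadjusted p under 0.05, and 0.218% of all genes tested were called.

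From 8 h to 48 h, a comparison within the v2 guide, both lists rose in both genotypes. In WT, 8 of 15 S-phase and 19 of 23 mitotic genes rose, where 50% of all genes tested were called and 22.5% were called higher (medians 0.56 and 0.73, all genes 0.01). In HET, 13 of 15 S-phase and 23 of 23 mitotic genes rose, where 52% were called and 23.4% were called higher (medians 0.91 and 1.38, all genes -0.03). Values did not overlap in 11 of 16 and 23 of 25 genes in WT, beside 27.1% of all genes tested, and in 15 of 16 and 25 of 25 in HET, beside 31.1%. Top2a stood at 0.42, 0.393 and 0.161 FPKM at 8 h and 3.2, 6.01 and 4.81 FPKM at 48 h in WT (2.07 ± 0.27, limma adjusted p = 2.56e-06), and at 0.46, 0.341 and 1.21 and then 7.1, 12 and 9.58 FPKM in HET (2.67 ± 0.27, limma adjusted p = 9.36e-08). Birc5 stood at 0.215, 0.0237 and 0 FPKM and then 1.38, 3.6 and 1.37 FPKM in WT (1.46 ± 0.25, limma adjusted p = 7.83e-05), and at 0.107, 0.367 and 0.75 and then 5.43, 8.11 and 7.67 FPKM in HET (2.53 ± 0.25, limma adjusted p = 9.24e-08). In both genes and both genotypes every 48 h library exceeded every 8 h library.

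S-phase genes followed in the same comparison. Rrm1 stood at 0.772, 0.723 and 0.404 FPKM at 8 h and 2.46, 3.61 and 2.66 FPKM at 48 h in WT (1.26 ± 0.21, limma adjusted p = 6.72e-05), and at 0.747, 0.736 and 0.97 and then 5.05, 6.38 and 6.4 FPKM in HET (1.93 ± 0.21, limma adjusted p = 3.62e-07). Mcm4 stood at 0.819, 0.494 and 0.437 and then 1.89, 3.22 and 2.22 FPKM in WT (1.11 ± 0.19, limma adjusted p = 7.46e-05), and at 0.577, 1.16 and 0.965 and then 4.45, 4.59 and 4.48 FPKM in HET (1.55 ± 0.19, limma adjusted p = 1.45e-06). Both genes were separated by time in both genotypes. In HET the S-phase genes not called were Ccne2 (0.58) and Rrm2 (0.08), and in WT the 4 mitotic genes not called were Nusap1 (0.72), Bub1 (0.53), Cks2 (0.45) and Bub1b (0.18). The genotype difference of this rise was positive for all 38 tested genes (medians 0.47 and 0.65, all genes 0.02), yet limma called none, where 0.723% of all genes tested were called. Of these, 4 S-phase and 10 mitotic genes had an unadjusted p under 0.05, and the smallest adjusted p was 0.182, for Birc5 (1.07 ± 0.36). Macrophage markers rose in 9 of 13 in WT, where 1 fell, and in 11 of 13 in HET. Fibroblast and stellate markers rose in 9 and 10 of 12, and 8 of 10 acinar markers fell in HET, where 1 rose as in WT. In WT, 3 of 7 duct and 2 of 7 endothelial markers rose, and 4 duct and 1 of 8 neutrophil markers fell. In HET, 1 duct and 1 neutrophil marker rose, and 2 duct, 3 endothelial, 2 neutrophil and 3 of 7 adipocyte markers fell. Their part was not tested. Against saline, which the 24 h comparisons share, 8 S-phase and 16 mitotic genes were higher at 48 h in WT, where 25.3% of all genes tested were called and 11.8% were called higher. In HET, 9 and 21 were higher, where 44.2% were called and 24.2% were called higher. Both comparisons with saline run across the guides, so time cannot be told apart from the guide in them.

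The time of the highest mean was set side by side for the genotypes as a description. It was not counted over all genes, so these counts have no background beside them. In WT all 16 S-phase and all 25 mitotic genes had their highest mean at 24 h. In HET, 11 S-phase genes had it at 24 h and 5 at 48 h, while 24 of 25 mitotic genes had it at 48 h, the exception being Bub1. Without WT 24 h replicate 1, the WT mean was highest at 24 h for 13 S-phase and 22 mitotic genes, with Mcm7, E2f1, Ccnb2, Cenpe and Cenpf highest at 48 h and Rrm2 at 8 h. The ratio of the 48 h mean to the 24 h mean had a median of 0.520 for S-phase and 0.479 for mitotic genes in WT (0.609 and 0.651 without that library), and of 0.879 and 1.69 in HET. These times were prepared by different guides in both genotypes. In HET, every 48 h value exceeded every 24 h value for 16 of 25 mitotic genes and 1 of 16 S-phase genes, where 15.1% of all genes tested did so. In WT no member did so, and every 48 h value lay below every 24 h value for 7 S-phase and 8 mitotic genes, where 12.6% of all genes tested did so.

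Tested within WT, a comparison chosen after the values were seen, 6 of 15 S-phase and 7 of 23 mitotic genes fell from 24 h to 48 h and none rose, where 7.54% of all genes tested were called and 3.64% were called lower. Pcna went from 29.1, 23.9 and 26.2 FPKM to 12.4, 14.5 and 13.8 FPKM (-0.91 ± 0.14, limma adjusted p = 0.000864), and Mcm6 from 13.8, 10.3 and 7.9 FPKM to 3.06, 5.25 and 4.13 FPKM (-1.17 ± 0.21, limma adjusted p = 0.0019). Foxm1, the transcription factor of mitotic genes, went from 2.32, 2.41 and 1.27 FPKM to 0.474, 1.25 and 0.396 FPKM (-0.82 ± 0.19, limma adjusted p = 0.0123). The 48 h values of all 3 genes lay below the 24 h values. The count was 13 genes in all, but 3 without WT 24 h replicate 1, 2 without WT 48 h replicate 1 and 3 without WT 48 h replicate 3. Of the markers in this comparison, 1 of 12 fibroblast and stellate markers rose, and 1 of 13 macrophage, 1 of 8 neutrophil and 1 of 7 duct markers fell.

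In HET the same test called 4 mitotic genes higher at 48 h, none lower, and 1 S-phase gene lower, where 6.06% of all genes tested were called, 2.87% higher and 3.2% lower. Ccnb2, a B-type cyclin, went from 1.26, 0.936 and 0.8 FPKM at 24 h to 3.08, 5.29 and 5 FPKM at 48 h (1.43 ± 0.29, limma adjusted p = 0.00597). Cdc20 went from 1.24, 1.15 and 1.25 FPKM to 2.64, 4.75 and 3.51 FPKM (1.04 ± 0.26, limma adjusted p = 0.0195). Their 48 h values all exceeded the 24 h values. Kif20a, a kinesin of cytokinesis, went from 0.941, 0.581 and 0.789 FPKM to 1.55, 2.03 and 2.26 FPKM (0.73 ± 0.17, limma adjusted p = 0.0145), and Ube2c, the ubiquitin-conjugating enzyme of the anaphase-promoting complex, from 2.81, 0.819 and 2.24 FPKM to 4.15, 6.83 and 5.91 FPKM (1.21 ± 0.31, limma adjusted p = 0.0245). Pcna fell from 33.7, 25.6 and 27.6 FPKM to 15.7, 20.8 and 19.3 FPKM (-0.61 ± 0.14, limma adjusted p = 0.0134), as it did in WT. Beside these genes in HET, 8 of 12 fibroblast and stellate markers rose (median 1.46) and 1 of 13 macrophage markers rose, while 2 of 8 neutrophil, 2 of 14 acinar and 1 of 7 duct markers fell. The fibroblast and stellate sum was 501 to 667 FPKM at 24 h and 1042 to 1606 FPKM at 48 h, and the part of these cells was not tested. With spread from the compared groups alone the WT count was 0, and the HET count was 7. The HET count of 5 was 3 without HET 24 h replicate 1 and 2 without HET 24 h replicate 2, HET 48 h replicate 2 or HET 48 h replicate 3. The change of the genotype difference between 24 h and 48 h, in which the guide is shared by the genotypes at each time, was positive for all 23 tested mitotic genes (median 1.11) and 14 of 15 S-phase genes (median 0.46), with a median of 0.01 over all genes tested. It was also chosen after the values were seen, and limma called none of these genes, where 0.0233% of all genes tested were called. An unadjusted p under 0.05 was reached by 6 S-phase and 18 mitotic genes, and the smallest adjusted p was 0.102, for Foxm1 (1.27 ± 0.27).

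At 48 h every tested S-phase and mitotic gene had a HET estimate above that of WT, though not all were called. FPKM is scaled to library size, so these are not amounts of transcript per pancreas. Summed FPKM over all genes ran from 217205 to 279109 in HET and from 394906 to 688666 in WT. Of the tested genes, 8 of 15 S-phase and 14 of 23 mitotic genes were higher in HET and none lower, where 12.2% of all genes tested were called and 5.85% were called higher. Medians were 0.62 and 0.78, beside 0.03 for all genes tested. Over all 41 genes the HET values lay above the WT values without overlap in 13 of 16 S-phase and 24 of 25 mitotic genes, beside 17.9% of all genes tested. Birc5 stood at 1.38, 3.6 and 1.37 FPKM in WT and 5.43, 8.11 and 7.67 FPKM in HET (1.43 ± 0.25, limma adjusted p = 0.00125). Ccna2 stood at 1.65, 2.83 and 1.7 FPKM in WT and 3.92, 5.29 and 5.27 FPKM in HET (0.94 ± 0.19, limma adjusted p = 0.00387). In both genes WT replicate 2 was the highest WT library and still below the lowest HET library. Foxm1 stood at 0.474, 1.25 and 0.396 FPKM in WT and 1.42, 2.19 and 2.54 FPKM in HET (0.85 ± 0.19, limma adjusted p = 0.00679). Kif20a stood at 0.655, 1.05 and 0.642 against 1.55, 2.03 and 2.26 FPKM (0.73 ± 0.17, limma adjusted p = 0.0103).

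Among S-phase genes at 48 h, Mcm5 stood at 1.17, 2.83 and 1.88 FPKM in WT and 4.08, 5.61 and 4.98 FPKM in HET (1.02 ± 0.23, limma adjusted p = 0.00833). Mcm7 stood at 5.87, 8.18 and 6.5 against 12.6, 11 and 12.1 FPKM (0.73 ± 0.18, limma adjusted p = 0.0147). Gins2 stood at 2.78, 3.14 and 2.54 against 5.12, 6.86 and 7.11 FPKM (0.94 ± 0.24, limma adjusted p = 0.0155). These helicase genes were separated between the genotypes. Rrm1 stood at 2.46, 3.61 and 2.66 against 5.05, 6.38 and 6.4 FPKM (0.83 ± 0.21, limma adjusted p = 0.0159). The other S-phase genes called were Mcm3 (0.94), Mcm4 (0.70), Mcm6 (0.66) and Cdc6, which loads the helicase (0.62). Those not called were Tyms (0.54), Mcm2 (0.45), Pcna (0.42), Ccne2 (0.27), E2f1 (0.22), Ccne1 (0.20) and Rrm2 (0.12), so that neither cyclin E gene nor E2f1 was among the calls.

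The count of 22 at 48 h depended on single libraries and on the spread used. It was 2 without WT 48 h replicate 1, 4 without WT 48 h replicate 3, 7 without HET 48 h replicate 2 and 3 without HET 48 h replicate 3, and Birc5 and Ccna2 were called without any library left out in turn. It was 0 when the spread came from these 2 groups alone, and 7 with a pseudocount of 0.1. Scaling without enzyme and Reg genes gave 32 calls, with the median of all genes shifted to 0.38 and medians of 0.98 and 1.20 for the lists. As the median gene moved up too, the larger count is not a result about the lists. Beside these genes, 7 of 13 macrophage, 3 of 12 fibroblast and stellate and 2 of 7 duct markers were higher in HET, 2 of 7 endothelial markers were lower, and 13 of 13 tested acinar markers were lower. From WT to HET, the macrophage sum ranged from 310.5 to 1051 and 978 to 1733 FPKM, the fibroblast sum from 724 to 1149.6 and 1042 to 1606 FPKM, the endothelial sum from 27.2 to 29.8 and 12.1 to 18.9 FPKM, and the acinar sum from 36449 to 92351 and 792 to 22107 FPKM. The acinar markers listed at 0 throughout were Cela2a and Amy2a5 in WT and Amy2a5 in HET. Their part in the result was not tested.

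**Figure D3:**
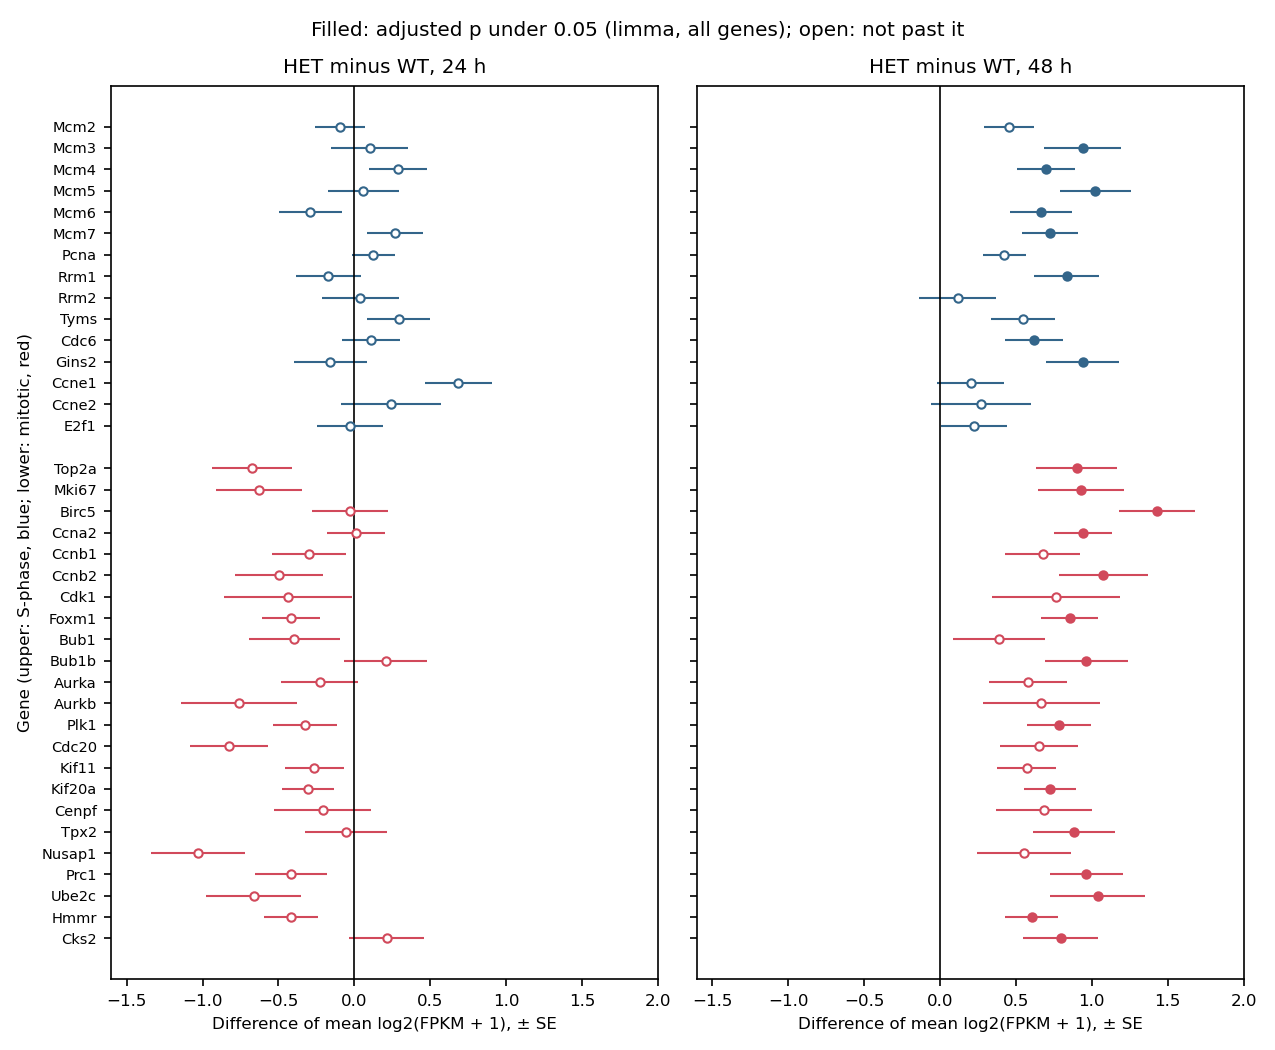
HET minus WT difference of mean log2(FPKM + 1) with its SE for the 38 tested genes at 24 h (left) and 48 h (right); blue S-phase, red mitotic, filled where the limma adjusted p is under 0.05. No point is filled at 24 h and 22 are filled at 48 h, all to the right of 0.

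In saline, without caerulein, the HET estimates of both lists were above those of WT, and few genes passed the test. Of the tested genes, 2 of 15 S-phase and 2 of 23 mitotic genes were called higher and none lower, where 2.36% of all genes tested were called and 1.15% were called higher. All 15 and all 23 differences were positive (medians 0.55 and 0.45, all genes 0.00). The values did not overlap in 6 of 16 S-phase and 8 of 25 mitotic genes with HET higher, beside 8% of all genes tested. Mcm5 stood at 0.377, 0.408 and 0.858 FPKM in WT and 1.48, 2.02 and 3.12 FPKM in HET (1.03 ± 0.23, limma adjusted p = 0.0271). Pcna stood at 11.3, 7.55 and 11.3 against 14.5, 16 and 14.3 FPKM (0.55 ± 0.14, limma adjusted p = 0.0475). Both were separated between the genotypes, as were the mitotic genes called. Tpx2 stood at 0.141, 0.0609 and 0.117 against 1.94, 1.3 and 1.23 FPKM (1.16 ± 0.27, limma adjusted p = 0.0292), and Birc5 at 0, 0.341 and 0.652 against 1.55, 1.71 and 1.44 FPKM (0.98 ± 0.25, limma adjusted p = 0.0463). Of the 24 fits without a library, the Pcna call was lost in 17, Birc5 in 16, Tpx2 in 5 and Mcm5 in 4. Pcna and Birc5 were also lost without the filter, and all 4 with spread from the compared groups alone. Without WT saline replicate 3, whose guide is not listed, 6 genes were called and the medians were 0.61 and 0.49. The count of 4 was 0 without WT saline replicate 1 or 2, 1 without HET saline replicate 2 or 3, 2 without WT 24 h replicate 2 or HET 24 h replicate 2 or 3, which share the spread, 7 without WT 24 h replicate 1, and 0 under the scaling without enzyme and Reg genes. In saline, 2 of 13 macrophage, 3 of 12 fibroblast and stellate and 1 of 7 adipocyte markers were higher in HET and 1 of 9 islet markers was lower. The macrophage sum was 94.3 to 220.0 FPKM in WT and 286 to 611 FPKM in HET, the fibroblast sum 228 to 311 and 405 to 760.2 FPKM, and the adipocyte sum 42.5 to 116 and 248 to 567 FPKM, all without overlap. The islet sum was 2749 to 5238 FPKM in WT and 975 to 1455 FPKM in HET, also without overlap. All 9 islet markers had estimates below 0 and an unadjusted limma p under 0.05 (median -1.35). Their part was not tested.

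S-phase and mitotic genes were compared within each library by the difference of their mean log2(FPKM + 1), which a scaling of the library moves only through the pseudocount. The difference was 0.92 ± 0.02 (SD, n = 3) in WT saline and 0.89 ± 0.08 in HET saline, with no test given. At 24 h it was 0.47, 0.70 and 0.73 in the WT animals and 0.97, 1.16 and 1.12 in the HET animals, so every HET library leaned further towards S-phase than every WT library, with or without WT replicate 1. At 48 h the WT animals had 0.71, 0.42 and 0.70 and the HET animals 0.57, 0.36 and 0.26, which overlap. Within HET every 48 h library lay below every 24 h library. The ratio of summed mitotic to summed S-phase FPKM was 0.972, 0.718 and 0.690 in WT at 24 h, 0.541, 0.482 and 0.540 in HET at 24 h, and 0.852, 1.06 and 1.10 in HET at 48 h. With a pseudocount of 0.1 the HET means were 1.59 in saline, 1.45 at 24 h and 0.45 at 48 h, and the WT means 2.09, 0.80 and 0.86. At that setting HET no longer lay above its saline mean at 24 h, while the order of the genotypes at 24 h and of the times in HET held.

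**Figure D4:**
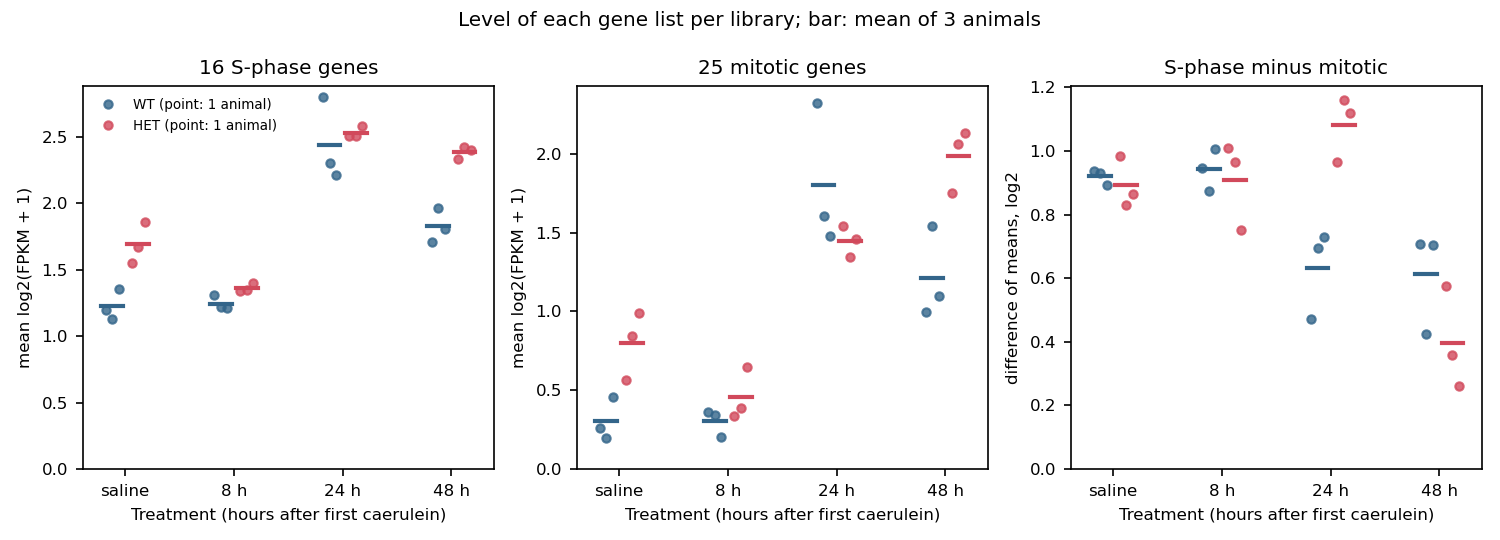
Mean log2(FPKM + 1) of the 16 S-phase genes, of the 25 mitotic genes and their difference in each animal by treatment (points, 1 animal; bars, mean of 3; blue, WT; red, HET). The difference at 24 h is 0.47 to 0.73 in WT and 0.97 to 1.16 in HET.

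Further genes of the same processes were counted by list. Of 42 tested genes in a list of 47 other replication factors, 33 rose and 1 fell in WT at 24 h and 25 rose and 1 fell in HET at 24 h, beside 20.5% and 23.9% of all genes tested called higher. By limma none was called between the genotypes at 24 h (0 with an unadjusted p under 0.05), and 6 were higher in HET at 48 h, beside 5.85% of all genes tested. Of 42 tested genes in a list of 55 other mitotic factors, 38 and 23 rose at 24 h in WT and HET, limma called none between the genotypes at 24 h (12 with an unadjusted p under 0.05), and 21 were higher in HET at 48 h. Over all listed genes, without the filter, 34 and 23 of 47 replication factors and 47 and 27 of 55 mitotic factors rose at 24 h in WT and HET, beside 11% and 12.7% of all genes then tested. In that fit 5 and 23 were higher in HET at 48 h, beside 2.82%. Uhrf1, which couples DNA methylation to replication, rose by 2.15 ± 0.18 in WT (limma adjusted p = 1.15e-07) and 1.36 ± 0.18 in HET at 24 h (limma adjusted p = 9.16e-06). Tubb5, a tubulin, rose by 1.99 ± 0.18 in WT (limma adjusted p = 2.35e-07) and 1.60 ± 0.18 in HET (limma adjusted p = 1.25e-06) and was higher in HET at 48 h (1.03 ± 0.18, limma adjusted p = 0.00115). Tubb5 is a cytoskeletal gene in non-dividing cells too. Nuf2, a kinetochore subunit, was higher in HET at 48 h by 0.90 ± 0.16 (limma adjusted p = 0.00115).

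Regulators of the cycle were called about as often as all genes. Of 27 tested genes in the list of 31 regulators, 9 rose and 3 fell at 24 h in WT and 7 rose and 5 fell in HET, where 39.2% and 43.8% of all genes tested were called. Cdkn1a, the cell cycle inhibitor induced by p53, stood at 5.38 to 25.4 FPKM in WT saline and 196 to 199 FPKM at 8 h (3.79 ± 0.36, limma adjusted p = 3.89e-08), and at 9.41 to 16.5 and then 186 to 228 FPKM in HET (3.86 ± 0.36, limma adjusted p = 2.63e-08). This rise of Cdkn1a from saline to 8 h runs across the guides and cannot be told apart from them. Within the v2 guide, from 8 h to 48 h, Cdkn1a fell by 2.39 on the log2 scale in WT and by 2.10 in HET (limma adjusted p = 1.71e-05 and 6.7e-05). Cdc25a, the phosphatase that activates cyclin-dependent kinases, fell at 24 h in WT (-1.05 ± 0.14, limma adjusted p = 9.25e-06) and in HET (-1.37 ± 0.14, limma adjusted p = 2.63e-07), opposite in sign to the called S-phase genes. At 48 h Cdc25a was lower in HET than in WT (-0.55 ± 0.14, limma adjusted p = 0.0123), as was Lin37, a MuvB subunit (-0.83 ± 0.22, limma adjusted p = 0.0194), while E2f4, an E2F that acts mainly as a repressor, was higher (0.48 ± 0.15, limma adjusted p = 0.0387), though no regulator was called higher without the filter. Cdkn2c, a cyclin-dependent kinase inhibitor, was the only 1 of 27 tested regulators called in the 24 h interaction (-1.49 ± 0.37, limma adjusted p = 0.0384). Of all genes tested, 2.31% were called in that interaction and 1.24% were called lower. Without the filter no regulator was called in it.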

How the data were processed

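Polyadenylated pancreas RNA of 24 mice was measured. The authors deposited FPKM, 1 line per gene; the header names no unit, and FPKM was inferred from Cuffnorm. The tools named are Cufflinks 2.0.2, Cuffnorm, Bowtie and CASAVA 1.8, and the build is mm9, per the submitters' processing notes, which state neither role nor order. For annotation and library scaling, none is given in the sources used here.

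The 12871 of 36806 genes that reached 1 FPKM in 3 or more libraries were fitted with limma 3.58.1 in R 4.3.3 on log2(FPKM + 1), with 1 mean per group, trend and robust moderation, two-sided tests and Benjamini-Hochberg adjustment. Zeros of a gene in a whole group were treated as missing where another group reached 100 FPKM in each of its libraries (22 genes, no member). Replicates were numbered in accession order and pair nothing; each library is another animal by the series design. The 48 h against 24 h comparisons were chosen after the values were seen. The members and gene lists were chosen with earlier results of these data known. Values per animal were given for up to 4 genes of each list with the smallest adjusted p in a comparison, 2 where none was called, and for genes whose call differed from most of their list; up to 3 were named per further list. Alternatives were a pseudocount of 0.1, no filter, 2 scalings, zeros kept, spread from the compared groups alone and leaving out each library. The code was tested on simulated data. Promoters came from RefSeq (GRCm38.p6), matched by symbol.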

Additional observations from a re-analysis of the deposited data

Results flagged for a closer look

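Top2a was singled out because its rise from saline to 24 h differed between the genotypes by a test of that difference, at -1.57 on the log2(FPKM + 1) scale for HET minus WT (limma adjusted p = 0.0333).

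Further, 6 mitotic genes moved in opposite directions from 24 h to 48 h in the genotypes, with every HET animal higher at 48 h and every WT animal lower. The same opposite movement without overlap was shown by 52 of the 12871 genes that passed the filter (0.404%). The 24 h and 48 h libraries were prepared by different guides. In WT the lowest 24 h and the highest 48 h value were close in Hmmr (1.1 and 1.09 FPKM) and Foxm1 (1.27 and 1.25 FPKM). They were also close in Birc5 (3.68 and 3.6 FPKM) and Prc1 (2 and 1.93 FPKM). The ratio of the 48 h mean to the 24 h mean was 1.58 in HET and 0.446 in WT for Birc5, and 1.69 and 0.353 for Foxm1. It was 1.69 and 0.436 for Hmmr, a spindle protein, and 1.89 and 0.305 for Nusap1. It was 1.71 and 0.408 for Prc1 and 1.50 and 0.411 for Top2a. The difference between the genotypes did not pass the limma test for any of these genes, with adjusted p between 0.102 for Foxm1 and 0.211 for Nusap1. The WT ratios include WT 24 h replicate 1. Without it the median WT ratio of all 25 mitotic genes was 0.651, against 0.479 with it.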

How the results depend on the processing

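No called gene reversed under any alternative run: over single called genes, 1300 values kept their side of the threshold and 146 did not under the other settings, and 5442 kept it and 342 did not with a library left out. Many of these runs could not reverse a gene, so the totals overstate stability. Keeping zeros changed no value of a member. Leaving out a library outside the compared groups changed the spread but not the difference. A pseudocount of 0.1 gave 12 calls for WT 8 h against saline (5 as reported), 10 for HET against WT in saline (4), 7 at 48 h (22), 3 for the 24 h interaction (1), 4 for WT 48 h against 24 h (13) and 1 for HET 48 h against 24 h (5). Without the filter, HET against WT in saline gave 2 and the 24 h interaction 0. Scaling without enzyme and Reg genes gave 3 for WT 8 h against saline, 0 for HET against WT in saline, 1 at 24 h (0 as reported) and 0 for the 24 h interaction. Scaling to the library median gave 1 for HET against WT at 24 h. Spread from the compared groups alone gave 15 for WT 48 h against saline (24), 0 for WT 48 h against 24 h, and 0 for HET against WT in saline, at 48 h and for the 24 h interaction.

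Leaving out each library gave 14 to 27 calls for WT 48 h against saline (14 without WT 48 h replicate 2), and for HET against WT 0 to 7 in saline, 0 throughout for the 8 h animals, 2 to 25 for the 48 h animals and 0 to 2 for the 24 h animals. It gave 0 to 8 for the 24 h interaction, 0 to 2 for the 48 h against 8 h interaction, 0 to 2 for the 48 h against 24 h interaction, 2 to 14 for WT 48 h against 24 h and 2 to 6 for HET 48 h against 24 h.

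The S-phase minus mitotic difference with a pseudocount of 0.1 was 2.09, 2.05, 0.80 and 0.86 in WT saline, 8, 24 and 48 h and 1.59, 1.81 and 1.45 in HET saline, 8 and 24 h. Scaling without enzyme and Reg genes gave 0.76 in WT saline, 0.78 in WT at 8 h, 0.76 in HET saline and 1.20 in HET at 24 h. No paired analysis was made because each library is another animal by the series design and the replicates pair nothing. With 3 animals a group and unknown depth, small differences of genes near 0 FPKM could not be resolved.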
